A study of Mus musculus with 6 samples.

Results

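The circadian clock genes described here were 10 genes chosen by name: Npas2, Clock, Per1, Per2, Per3, Cry1, Cry2, Nr1d1, Nr1d2 and Dbp. They were represented by 23 of the 45101 probe sets on the array, and the annotation names 18193 genes in all. The genes were picked with the higher Npas2 signal of the KO cells already known, so their KO and wild-type values are given as a description, without p-values. Expression was measured on 3 arrays of wild-type and 3 arrays of Slc39a13-KO primary chondrocytes. Slc39a13 is a zinc transporter, and in the KO mice a Neo cassette replaced exons 6 to 8 of the gene in R1 embryonic stem cells, from which homozygous animals were bred. Both groups of cells were freed by collagenase from newborn rib cages, strained and grown in α-MEM with 10% fetal calf serum, and no sort is described. No treatment or time series is given in the labels. The hour of harvest, the time after the last change of medium and the strain of these mice are not given in the sources used here, nor whether the arrays of a group came from separate mice.

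The circadian clock of mammalian cells is a loop of transcription and translation that also runs in cartilage and in cultured cells. CLOCK or its relative NPAS2 pairs with BMAL1, the product of Arntl, and the pair binds E-boxes to turn on the Per, Cry, Nr1d and Dbp genes, whose PER and CRY proteins then hold the pair back. REV-ERB receptors, from Nr1d1 and Nr1d2, and ROR receptors compete for RORE elements of Arntl, Npas2 and Nfil3, so transcripts driven from ROREs usually peak when those driven from E-boxes and D-boxes are low. Fresh serum, cAMP and glucocorticoid can set the phase of cultured cells, and cells that are not set together drift apart.

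Sequences just upstream of the start sites show which of these elements can be read there. RefSeq windows of 300 bases (250 before to 50 after a start, build GRCm38.p6) were matched for 9 of the 10 genes, in 12 windows, and none was matched for Per2. The motifs were searched on both strands among 32851 windows. The following stretches are printed 5′ to 3′ on the strand of the gene, with the matched motif in capitals.
Npas2, chr1:39194172-39194271, plus strand, shown because its signal differed most and no motif was found in its window: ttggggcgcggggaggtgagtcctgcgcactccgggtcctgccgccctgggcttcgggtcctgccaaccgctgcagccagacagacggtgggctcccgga
Cry1, chr10:85185085-85185157, minus strand, shown for an E′-box and an E-box side by side: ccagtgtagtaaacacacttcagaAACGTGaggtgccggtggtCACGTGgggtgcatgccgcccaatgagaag
Per1, chr11:69098759-69098812, plus strand, shown for its E-box: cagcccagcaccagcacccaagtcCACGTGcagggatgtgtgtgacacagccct
Per3, chr4:151044792-151044894, minus strand, shown for a pair of D-boxes: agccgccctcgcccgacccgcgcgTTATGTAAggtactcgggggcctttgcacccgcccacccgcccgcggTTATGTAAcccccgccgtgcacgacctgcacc
Arntl, chr7:113207492-113207521, plus strand, shown for the RORE at the start of the partner of NPAS2: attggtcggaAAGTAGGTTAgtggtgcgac

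The E-box CACGTG was in 7.15% of all windows and in 2 of the 12 windows of the clock genes, at 166 bases before the start of Per1 (position -166) and at -60 of Cry1. The related E′-box CACGTT was in 4.68% of all windows and in 3 of the 12, those of Cry1 at -79, Cry2 at -166 and Nr1d1 at -28. The D-box TTATGTAA, bound by DBP and its relatives, was in 0.938% of all windows and in 1 of the 12, that of Per3, at -205 and -158. The RORE (the letters in capitals in the Arntl stretch, with any base in the last place but 1) was in 0.192% of all windows and in 0 of the 12, while the windows of Arntl held it. This pattern is the form that Arntl carries, so its match there was set by the choice of letters. Other forms of the element were not searched. The core of the cAMP response element TGACGT was in 7.51% of all windows and in 1 of the 12, the second window of Per1, at -132. The E-box, the E′-box and the cAMP core share the letters ACGT. By their letters, an E-box match and an E′-box match cannot overlap. No match to the cAMP core overlapped either of them in the windows of the clock genes. None of these patterns was found in the windows of Npas2, Clock, Nr1d2, Dbp and Nfil3, and no window was matched for Bhlhe40. Where these genes are called driven from an element below, that is background and not a result of this search. The matches describe these windows alone, and elements farther away were not searched.

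The deposited values are MAS5 signals on a linear scale, used as log2(signal + 7.96), where 7.96 is their 10th percentile. Because of this addend, differences of dim genes are understated. Probe sets whose log2 values averaged under 5.80, a signal of about 47.8, were left out, and the brightest remaining probe set stood for each of 12726 genes. Slc39a13 itself gave wild-type signals of 901, 1081 and 991 and KO signals of 100, 196 and 165, which bears out the labels. KO replicate 1 stood slightly apart, with correlations of 0.947 to 0.957 to the other arrays, against 0.965 to 0.983 among those. Its median signal was 108, against 80.7 to 88.4 on the other arrays. By their sex-linked transcripts, wild-type replicate 3 and KO replicate 2 were female and the other 4 arrays male, so each group held cells of more than 1 mouse. Of 13 chondrocyte markers, 5 were higher and 1 was lower in the KO arrays by limma with Benjamini-Hochberg adjustment at 0.05. Of 9 tested mesothelial markers 8 were lower, with a summed signal of 4710 to 7817 on the wild-type arrays and 650 to 1171 on the KO arrays, so the groups also differed in markers of another cell type. Among fibroblast markers 4 of 9 were higher and 2 lower, among adipocyte markers 2 of 4 were higher, among muscle markers 1 of 5 was higher and 1 lower, among macrophage markers 1 of 7 was lower, and 0 of 2 endothelial markers passed. Over all 12726 genes, 4.64% were higher and 4.65% lower. In these bulk cultures, fewer cells of a type and less RNA per cell cannot be told apart. The part of these markers in the values of the clock genes was not tested.

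Npas2, which encodes the partner of BMAL1 that can stand in for CLOCK, was the only one of the 10 genes past the threshold as higher in the KO cells, where 4.64% of all 12726 genes were. It passed the filter only through its KO arrays, since the mean log2 value was 5.12 in the wild-type cells and 7.43 in the KO cells, and it was chosen for this difference, so the call is no support for it. Its brightest probe set gave signals of 5.71, 56.4 and 39.9 in wild-type cells against 144, 175 and 176 in KO cells. All KO arrays lay above all wild-type arrays, and the wild-type arrays were the more scattered. The means were 34.0 ± 25.8 and 165 ± 18.3 (SD, n = 3 each), a log2 difference of 2.31 (SE 0.56, 95% interval 1.07 to 3.55). Because the wild-type mean lay under the filter signal of 47.8, the size of this difference depends on the pseudocount. The other probe set of Npas2, with a mean under the filter, gave 4.90, 5.04 and 10.8 in the wild-type cells and 130, 100 and 85.7 in the KO cells. Here too the groups were well separated, and 2 of the 3 wild-type values were under the 10th percentile of all signals. Its log2 difference was 2.93 (SE 0.48) in a fit over all 34945 probe sets with 1 gene and no filter, where it was the only one of the 23 past the threshold (1.95% of these probe sets were higher and 1.89% lower), and it did not pass there without wild-type replicate 2.
The size of the Npas2 difference moved with single arrays. It was 1.63 without wild-type replicate 1, where the signal was lowest, and 2.75 without wild-type replicate 2, where it was highest. It was 1.74 when the 25th percentile of signals was added before the log and 2.64 when the 1st was. The number of clock genes past the threshold as higher went from 1 to 0 when wild-type replicate 3, KO replicate 2 or KO replicate 3 was left out. In the males the difference was 2.49 (2 arrays against 2) and in the females 1.93 (1 against 1).

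**Figure D1:**
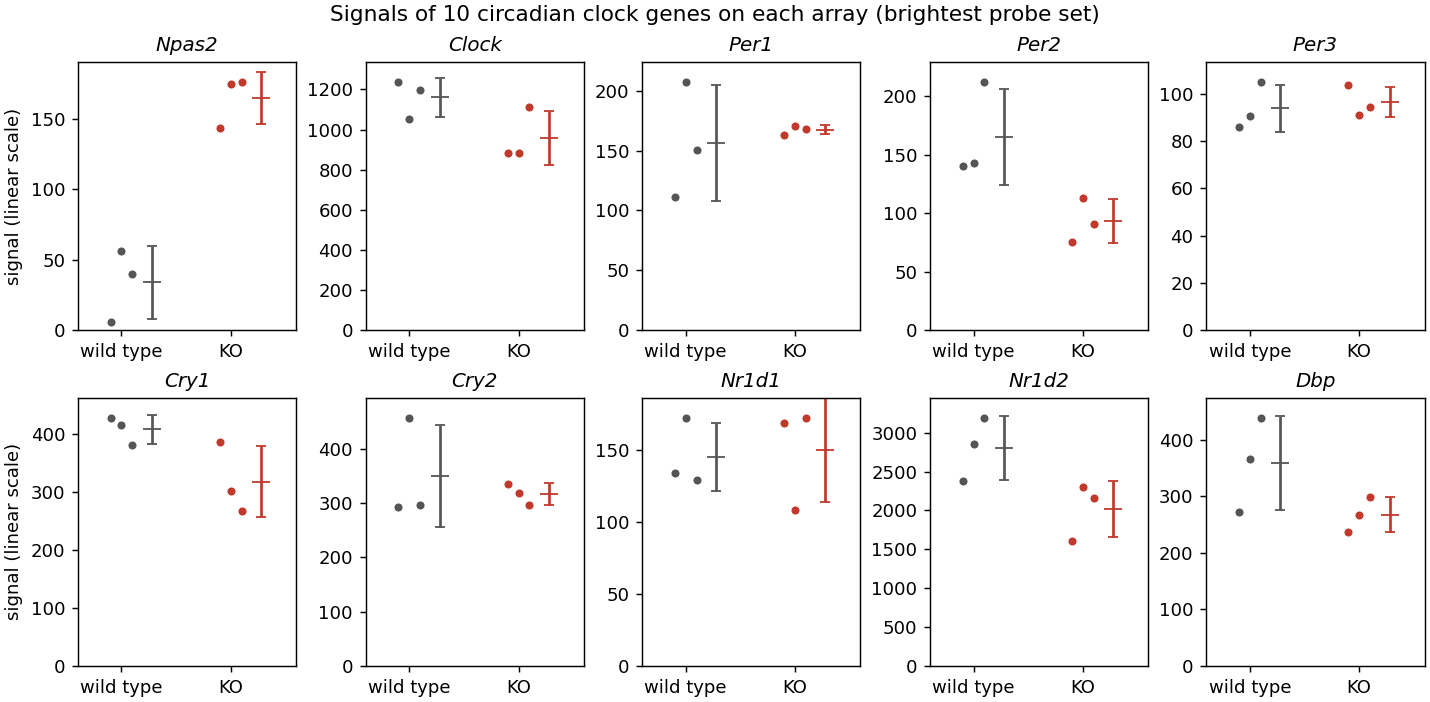
Signal on a linear scale (y axis, from 0, its own range in each panel) of the brightest probe set of each of the 10 clock genes on 3 wild-type (gray) and 3 KO (red) arrays. Points are single arrays in replicate order, and the bar beside them is the mean ± SD. The Npas2 points are fully separated, with KO signals of 144 to 176 against 5.71 to 56.4, while most other panels overlap.

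Clock encodes the usual partner of BMAL1, a histone acetyltransferase. Its brightest probe set gave wild-type signals of 1237, 1052 and 1196 and KO signals of 882, 882 and 1111, and the groups overlapped because KO replicate 3 exceeded wild-type replicate 2. The log2 difference was -0.28 (SE 0.12, interval -0.54 to -0.02). A second probe set from the same transcript differed by -0.19. The remaining probe sets lay on the other side of 0. One of them gave 147, 154 and 159 in wild-type cells against 263, 203 and 237 in KO cells, with all KO arrays above (0.58, SE 0.21), and the other differed by 0.32 with overlap. The probe sets of Clock therefore did not share a direction, and the mean over them differed by 0.11.
Arntl, whose protein BMAL1 pairs with both CLOCK and NPAS2, is not among the 10 genes and was therefore tested. Its brightest probe set gave 371, 325 and 246 in the wild-type cells and 464, 482 and 450 in the KO cells. All KO arrays lay above all wild-type arrays, but the log2 difference of 0.57 (SE 0.16) did not pass the threshold (adjusted p = 0.0558, limma). Its dimmer probe set gave wild-type signals of 142, 76.7 and 75.1 and KO signals of 57.0, 17.5 and 73.3, so the KO arrays lay below there (-0.99, adjusted p = 0.381, limma over all probe sets with 1 gene). With the mean of the probe sets in place of the brightest one, the difference of Arntl was -0.21.

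The Period genes encode the PER proteins, which with CRY repress the CLOCK and BMAL1 pair. Per1, which also answers to cAMP within an hour or so in many cells, gave 111, 207 and 150 in wild-type cells against 163, 171 and 168 in KO cells. The KO signals lay inside the wild-type range, and the log2 difference was 0.14 (SE 0.25, interval -0.43 to 0.70). Per2 gave 141, 143 and 212 in the wild-type cells and 75.6, 113 and 90.9 in the KO cells. All KO arrays lay below all wild-type arrays, with a log2 difference of -0.77 (SE 0.28, interval -1.40 to -0.14), the lowest among the 10 genes. The other probe sets of Per2 were dimmer and overlapped. They differed by -0.33 and 0.47, and the mean over the tested probe sets differed by -0.15.
Per3 had 6 probe sets, none of them separated. Its brightest gave wild-type signals of 85.9, 90.7 and 105 and KO signals of 104, 91.2 and 94.5, a log2 difference of 0.04 (SE 0.29). Over the 6 probe sets the differences ran from -0.57 to 0.70, around 0.

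Cry1 and Cry2 encode the cryptochromes, the strongest repressors of the loop. Cry1 gave 428, 416 and 380 in wild-type cells against 385, 301 and 266 in KO cells. The groups overlapped in KO replicate 1 alone, with a log2 difference of -0.37 (SE 0.16, interval -0.73 to -0.01). Cry2 gave 293, 457 and 297 in the wild-type cells and 336, 319 and 296 in the KO cells. Its difference of -0.11 (SE 0.19) rested on wild-type replicate 2 and was 0.10 without it.
Bhlhe40 (DEC1), an E-box repressor that is itself turned on from E-boxes, was tested as a gene outside the 10. It gave wild-type signals of 436, 467 and 542 and KO signals of 266, 352 and 357, all below the wild type, and the log2 difference of -0.56 (SE 0.16) missed the threshold (adjusted p = 0.0527, limma). It passed without KO replicate 3 (-0.63, adjusted p = 0.0445, limma).

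Nr1d1 and Nr1d2 encode REV-ERBα and REV-ERBβ, the heme-binding repressors at ROREs. Nr1d1 gave 134, 172 and 129 in wild-type cells against 169, 108 and 172 in KO cells. The groups overlapped over most of their ranges, with a log2 difference of 0.03 (SE 0.26, interval -0.56 to 0.61) whose sign changed under 6 of 17 settings, quantile normalization and median centring included. Nr1d2 gave 2373, 2856 and 3195 in the wild-type cells and 1609, 2295 and 2154 in the KO cells. All KO arrays lay below all wild-type arrays, with a log2 difference of -0.48 (SE 0.14, interval -0.80 to -0.16). Nr1d2 was not past the threshold, but it was past it as lower with sex as a block. The smallest gap was between wild-type replicate 1 and KO replicate 2. The difference was -0.33 without KO replicate 1. The second probe set of Nr1d2 gave wild-type signals of 208, 201 and 270 and KO signals of 210, 145 and 157, with overlap and a difference of -0.39 (SE 0.23).
Rora encodes the ROR receptor that activates at the same elements. Its brightest probe set gave 204, 186 and 195 in wild-type cells against 209, 256 and 290 in KO cells, all above the wild type, with a log2 difference of 0.35 (SE 0.19) that did not pass (adjusted p = 0.285, limma). Of its 9 probe sets 8 had a difference above 0, and in 4 all KO arrays lay above all wild-type arrays, as in 12.4% of all probe sets with 1 gene. These probe sets share 1 gene. Nfil3 (E4BP4), a RORE-driven repressor at D-boxes, gave 525, 540 and 488 in the wild-type cells and 597, 778 and 748 in the KO cells. These were again all above the wild type (0.44, SE 0.13) and did not pass (adjusted p = 0.0597, limma). Without KO replicate 1 Nfil3 was past the threshold (0.55, adjusted p = 0.0132, limma).

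Dbp encodes the D-box activator and is among the most strongly cycling outputs of E-boxes in most tissues. Its brightest probe set, which may bind several transcripts, gave wild-type signals of 273, 365 and 439 and KO signals of 237, 267 and 298. Only wild-type replicate 1 lay within the KO range, and the log2 difference was -0.39 (SE 0.19, interval -0.82 to 0.04). It was -0.24 without wild-type replicate 3, the array with the highest signal. The second probe set gave 223, 243 and 346 in wild-type cells against 214, 173 and 142 in KO cells. There all KO arrays lay below, with a difference of -0.59 (SE 0.24, interval -1.12 to -0.06).
Tef, a relative of Dbp, did not pass either, and its KO arrays differed widely among themselves, with 842 on replicate 1 against 449 and 469.

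**Figure D2:**
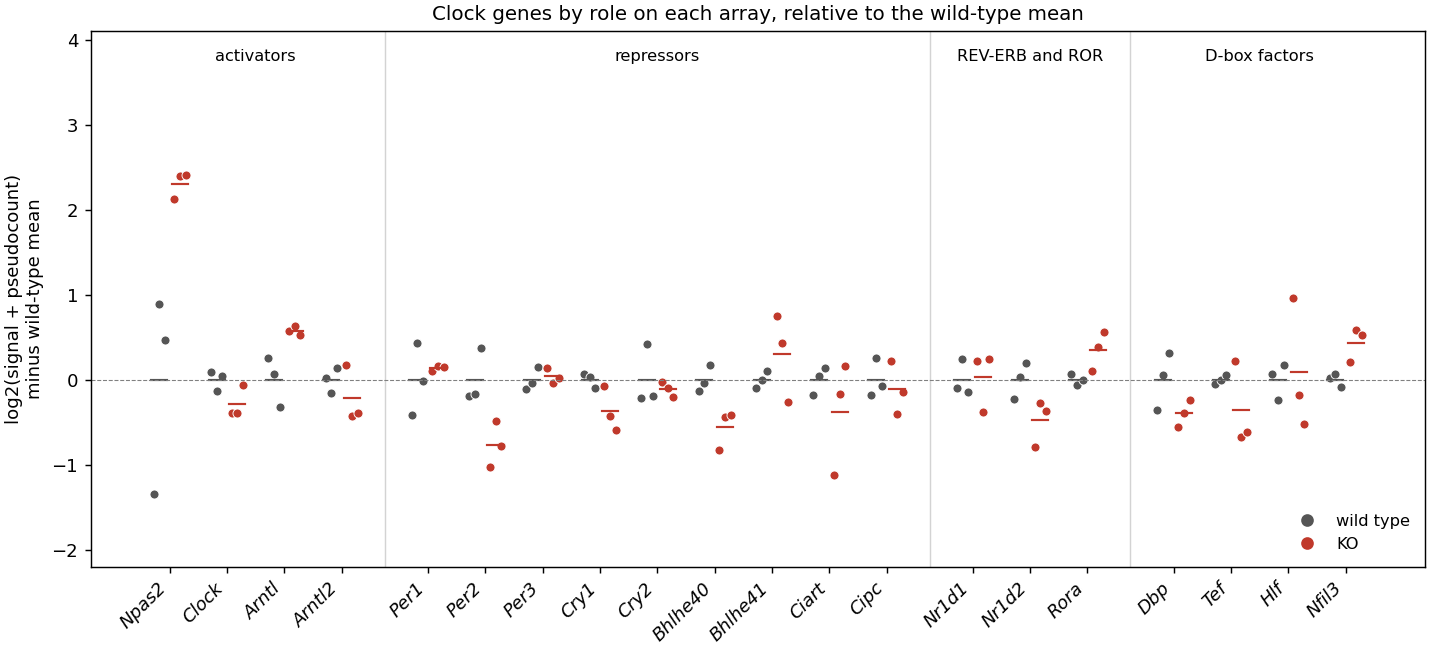
Log2(signal + 7.96) minus the mean of the wild-type arrays (y axis) for clock genes grouped by role (x axis), on 3 wild-type (gray) and 3 KO (red) arrays. Points are arrays and short lines group means. Npas2 stands 2.31 above the wild-type mean. The 3 KO arrays of Npas2, Arntl, Rora and Nfil3 all lie above the 3 wild-type arrays and those of Per2, Bhlhe40 and Nr1d2 all lie below, while the groups overlap in the other genes.

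Of the 10 genes, 1 was past the threshold as higher (4.64% of all 12726 genes) and 0 were past it as lower (4.65%). At an unadjusted p under 0.05 there were 5 of the 10, against 25.1% of all genes. In 1 gene, Npas2, all KO arrays lay above all wild-type arrays, as in 16.0% of all genes, and in 2 genes, Per2 and Nr1d2, all lay below, as in 14.9%. In the other 7 the groups overlapped. The median log2 difference was -0.19, within a range of -0.77 to 2.31, and the median over all genes was 0.01. The difference was above 0 in 4 genes and below 0 in 6. Apart from Npas2, the 95% interval lay on 1 side of 0 in 4 genes (Clock, Per2, Cry1 and Nr1d2), all on the negative side, and in 5 it held 0. Over all 12726 genes this interval lay below 0 in 1578 and above 0 in 1620. As lower, 1 gene was past the threshold with KO replicate 3 left out (Clock), with sex as a block (Nr1d2) or with the replicate block (Nr1d2). These counts include the contrast on which Npas2 was selected, and nothing is read from them.
Over the 23 probe sets the difference was above 0 in 10 and below 0 in 13. All KO arrays lay above all wild-type arrays in 3 of them (both of Npas2 and 1 of Clock), where 12.4% of the 34945 probe sets did so. They lay below in 3 (1 each of Per2, Nr1d2 and Dbp), where 10.6% did so, and in 17 the groups overlapped. Of the 6 genes with more than 1 probe set, 3 (Clock, Per2 and Per3) had probe sets on both sides of 0, and Npas2, Nr1d2 and Dbp did not.

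**Figure D3:**
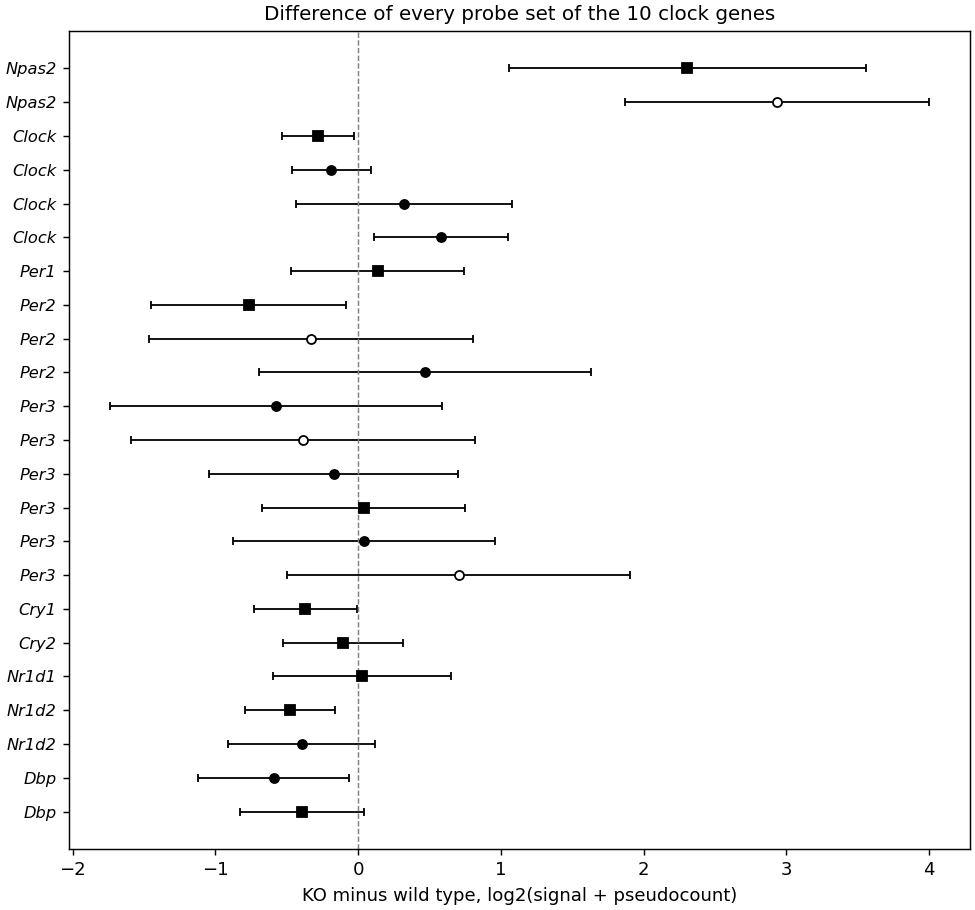
KO minus wild-type log2 difference (x axis) of each of the 23 probe sets of the 10 clock genes (y axis), with 95% intervals from limma over all 34945 probe sets with 1 gene. Squares mark the brightest probe set of a gene, and open symbols those under the filter. Both Npas2 intervals lie above 1, and the probe sets of Clock, Per2 and Per3 fall on both sides of 0.

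Further genes of the clock were tested. Their lists were written with earlier results of these data known, although not by how these genes moved. Of 30 such genes on 2 lists, 27 were on the array and 26 were tested. None was past the threshold in either direction by limma with Benjamini-Hochberg adjustment, and 9 of the 26 had an unadjusted p under 0.05 (25.1% of all genes), 4 of them higher and 5 lower in the KO cells. All KO arrays lay above all wild-type arrays in 5 (16.0% of all genes) and below in 5 (14.9%), and the median log2 difference was -0.04 (0.01 over all genes). Without KO replicate 1, 1 gene was past the threshold as higher (Nfil3) and 2 as lower (Tef and Usp2), and without KO replicate 3, 1 was lower (Bhlhe40). In the fit over all probe sets, 2 of their 77 probe sets passed as higher and 0 as lower, where 1.95% and 1.89% of all probe sets did. They were a dimmer probe set of Timeless, a partner of PER and CRY (0.56, adjusted p = 0.0343, limma), and one of Nampt, the rate-limiting enzyme of NAD salvage (0.66, adjusted p = 0.0333, limma). The brightest probe sets of these genes differed by 0.14 and 0.22 and did not pass.
The 10 tested genes of the loop itself, among them Arntl, Rora, Nfil3, Bhlhe40 and Tef, had a median of -0.01, with 3 separated upward (Arntl, Nfil3 and Rora) and 1 downward (Bhlhe40). The 16 tested regulators, kinases, ubiquitin ligases and partners of PER and CRY, had a median of -0.05, with 2 separated upward and 4 downward.
Usp2, a deubiquitinase that acts on clock proteins and is itself rhythmic in many tissues, had the lowest difference of these. It gave 319, 273 and 271 in the wild-type cells and 202, 143 and 33.3 in the KO cells, all below the wild type. The KO arrays were widely spread, and the difference of -1.43 (SE 0.49) did not pass (adjusted p = 0.102, limma). It was -1.90 and past the threshold without KO replicate 1 (adjusted p = 0.0297, limma), and -0.73 without KO replicate 3, the array with the lowest signal (adjusted p = 0.0612, limma).
Cul1, a scaffold of the ubiquitin ligases that act on PER and CRY, differed by -0.21 (adjusted p = 0.117, limma). Fbxw11, an F-box protein for PER, differed by -0.19 (adjusted p = 0.158, limma) by its brightest probe set, which may bind several transcripts, and by 0.27 without such probe sets. Nono, a partner of PER, differed by 0.24 (adjusted p = 0.125, limma) and by -0.33 without such probe sets.

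**Figure D4:**
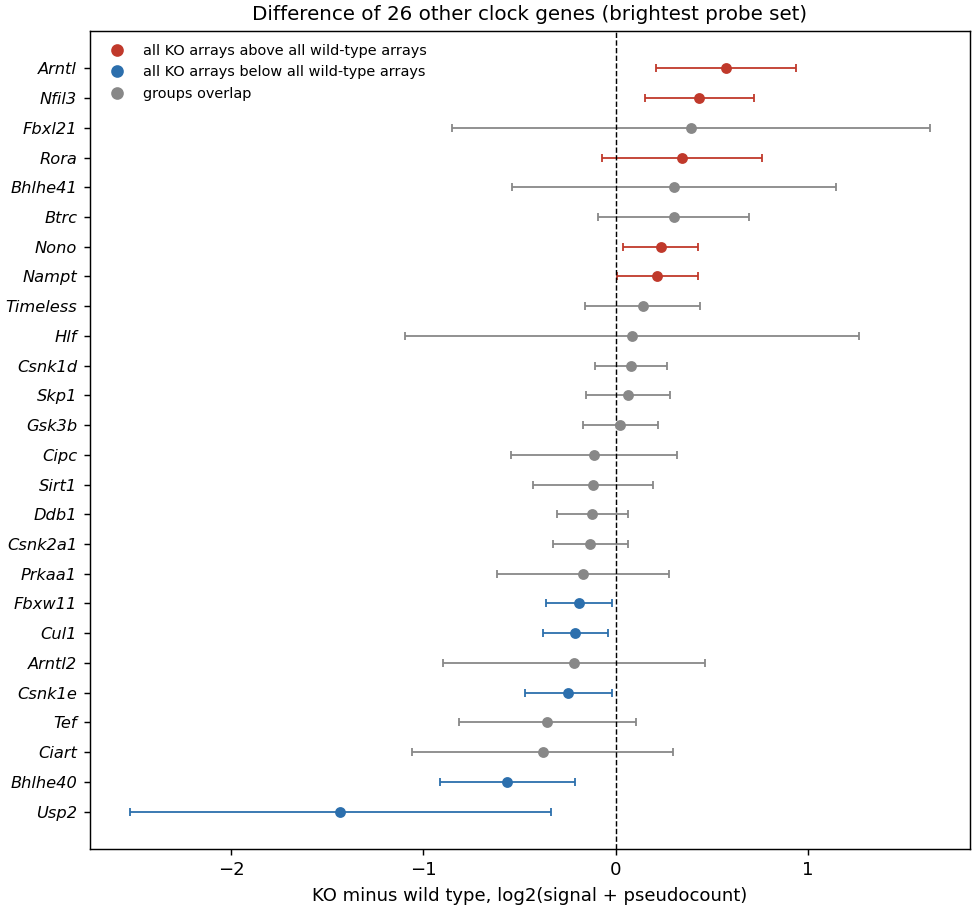
KO minus wild-type log2 difference (x axis) with 95% intervals from limma for the 26 tested clock genes outside the 10 (y axis, ordered by difference), by their brightest probe set. Red marks genes whose 3 KO arrays all lay above the 3 wild-type arrays, blue those whose KO arrays all lay below, and gray overlap. Arntl is at the top with 0.57 and Usp2 at the bottom with -1.43, and none passed the threshold.

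By their brightest probe sets, Npas2 (2.31), Arntl (0.57) and Nfil3 (0.44), introduced above as RORE-driven, had KO arrays that all lay above the wild-type arrays. Labels by element come from general knowledge of the clock, not from the promoter search. They are not exclusive, and a gene placed in 1 class, or in none, may also answer to the elements of another. Clock (-0.28) and Arntl2 (-0.22), which overlapped, and Rora (0.35), all above, were given no such label here. Of the genes driven from E-boxes or D-boxes, Per2 (-0.77), Bhlhe40 (-0.56) and Nr1d2 (-0.48) had KO arrays that all lay below, while Dbp (-0.39) and Cry1 (-0.37) overlapped. Per1 (0.14), Nr1d1 (0.03), Per3 (0.04) and Cry2 (-0.11) overlapped too. So did the other repressors and D-box factors tested, with differences of 0.31 for Bhlhe41, 0.09 for Hlf, -0.11 for Cipc, -0.35 for Tef and -0.38 for Ciart. The E-box and D-box genes thus did not all lie on 1 side of 0, and Npas2 itself prompted the choice of the set. Of those above 0, Per3, Bhlhe41 and Hlf were dim, with wild-type mean signals of 93.9, 68.1 and 47.0. These lay within or under the range of array medians (80.7 to 108), so a small difference there is not a measured lack of change. Per1 and Nr1d1 were brighter, at 156 and 145. Within males and females respectively, where genes without overlap keep their sign in any split of the arrays and the females were 1 array against 1, the differences were 0.39 and 0.95 for Arntl, 0.32 and 0.66 for Nfil3, -0.72 and -0.86 for Per2, -0.54 and -0.61 for Bhlhe40, -0.48 and -0.48 for Nr1d2, -0.24 and -0.70 for Dbp and -0.39 and -0.33 for Cry1. For Nr1d1 they had opposite signs, 0.16 and -0.23, as for Per3 (0.15 and -0.19) and Cry2 (-0.21 and 0.10). Each culture was measured at 1 time, so a different phase, a different amplitude or scatter of phases and a different mean level cannot be told apart in these arrays, and whether a shift of phase has a part in the Npas2 difference was not tested.

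Genes that answer to the signals that set clocks in culture were compared in the same fit. Of 14 tested early response genes of serum and cAMP, 0 were higher (4.64% of all genes) and 1 was lower (4.65%), with a median of 0.08. All KO arrays lay above all wild-type arrays in 4 of the 14 (16.0% of all genes) and below in 3 (14.9%). The 4 above were Fos (1.01), Egr2 (0.88), Sik1 (0.62) and Ier2 (0.44), and the 3 below Fosl1, Dusp1 (-0.26) and Atf3 (-0.21). KO replicate 1 stood above the other KO arrays for Fos (2390 against 1024 and 742) and Egr2 (302 against 108 and 120). The gene past the threshold was Fosl1, an AP-1 subunit (-0.75, adjusted p = 0.0323, limma). It did not pass when wild-type replicate 1 was left out (adjusted p = 0.134), nor without wild-type replicate 2 or 3 (0.111 and 0.0513, limma each). Nor did it pass with sex as a block (adjusted p = 0.0532, limma) or with the replicate block (0.0814). Of 10 genes induced by glucocorticoid, 0 were higher and 2 were lower, against the same shares of all genes, with a median of -0.19. All KO arrays lay above all wild-type arrays in 0 of the 10 (16.0% of all genes) and below in 5 (14.9%). In the other 5, which overlapped, the differences were 0.47 (Zbtb16), 0.11 (Sgk1), 0.09 (Klf9), -0.01 (Pdk4) and -0.18 (Fkbp5). The 2 past the threshold were Nfkbia, an inhibitor of NF-κB (-0.40, adjusted p = 0.00765, limma), and Errfi1, an inhibitor of EGF receptor signaling (-0.38, adjusted p = 0.0308, limma). Nfkbia did not pass with median centring (adjusted p = 0.120) or without the limma trend (0.0658). Errfi1 did not pass without wild-type replicate 1, 2 or 3 or KO replicate 2 (adjusted p of 0.131, 0.0673, 0.0994 and 0.0925, limma), with median centring (0.111) or without the trend (0.130). Their part in the values of the clock genes was not tested.

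The genes whose pattern over the 6 arrays was most like that of Npas2 were Hp, Tmie and Crispld2. Likeness was the mean absolute distance between log2 values after the mean of each gene was subtracted, over all 12726 genes. It therefore reflects the difference between the groups and the order of arrays within them, so a shared order is favored by the choice. Hp, which encodes the hemoglobin-binding protein haptoglobin, was at a distance of 0.28, with wild-type signals of 13.1, 68.8 and 35.9 and KO signals of 258, 313 and 260. As for Npas2, wild-type replicate 1 was lowest and wild-type replicate 2 highest among the wild-type arrays. Tmie, a transmembrane protein of the inner ear, was at 0.29, with 25.4, 169 and 88.2 in wild-type cells against 277, 286 and 239 in KO cells, the wild-type arrays again in that order. Crispld2, a secreted protein, was at 0.47.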

How the data were processed

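RNA of primary rib chondrocytes was hybridized to 6 Affymetrix Mouse Genome 430 2.0 arrays, 3 per group. The intensities deposited by the authors are signals on a linear scale. The processing notes of the submitters name MAS5, with no version, while the methods name gcRMA. Each array has a trimmed mean of 500.003 (2% trimmed), the form of MAS5 output, and the number of arrays limits the precision. The annotation gives 34958 probe sets 1 gene, 932 several and 9211 none, and 64 are controls. The tests used probe sets with 1 gene, log2(signal + 7.96), and a filter at the 40th percentile (23309 probe sets, 12726 genes by their brightest probe set). A second fit used all 34945 probe sets without the filter. The KO minus wild-type contrast was fitted in R 4.3.3 by limma 3.58.1 (lmFit, eBayes with trend) with no covariate, with Benjamini-Hochberg adjustment over all features and a threshold of 0.05. The script was tested on simulated data. Groups follow the sample titles. Replicates with the same number did not deviate together (correlations of 0.03, 0.02 and -0.07).

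The 10 genes and the lists (other clock genes, early response, glucocorticoid and cell type markers) were chosen with earlier results of these data known. The text names all 10 genes and Arntl, up to 4 genes of each clock list with the lowest p, genes of the early response and glucocorticoid lists past the threshold, the 3 most like Npas2, and Slc39a13. Tef, Timeless, Nampt, Csnk1e, the overlapping loop genes and the early response and glucocorticoid genes not past the threshold are named outside this rule, after their values were seen. Alternatives were other filters, pseudocounts, scalings, probe set rules, blocks, the 2-fold criterion of the methods and each array left out. Promoter sequences are from RefSeq.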

Additional observations from a re-analysis of the deposited data

How the results depend on the processing

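The Npas2 difference kept its direction under all 16 alternatives that gave a value (1.63 to 2.75), and with the filter at the 60th percentile it was not tested. The count of clock genes past the threshold as higher (1) was 0 with that filter, 0 without the limma trend, and 0 to 1 with an array left out. The count as lower (0) was 1 with the replicate block and 1 with sex as a block, Nr1d2 each time, and 0 to 1 with an array left out (Clock without KO replicate 3). The replicate numbers do not pair the samples, and the block changed no other call on these genes by their brightest probe set. Of the 23 probe sets, 1 was past the threshold, against 2 with the pseudocount at the 25th percentile (both of Npas2), 2 with the replicate block (1 each of Npas2 and Nr1d2), 0 without the trend and 0 to 1 with an array left out (0 without wild-type replicate 2). The other clock genes past the threshold as higher (0) were 1 with the filter at the 60th percentile (Arntl), 1 with the mean of the probe sets of a gene (Nampt) and 0 to 1 with an array left out. As lower (0) they were 1 with that filter (Bhlhe40), 1 with the mean (Csnk1e), 1 by the 2-fold criterion (Usp2) and 0 to 2 with an array left out (Tef and Usp2 without KO replicate 1).

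With the mean of the probe sets Arntl differed by -0.21, Fbxw11 by 0.14 and Nono by -0.10, against the sign of their brightest probe set, and without probe sets that may bind several transcripts Fbxw11 differed by 0.27 and Nono by -0.33. The cause is the other probe sets, which differ in sign. Among the 10 genes, 5 kept 1 sign under every alternative that gave a value (Npas2, Per2, Cry1, Nr1d2 and Dbp, of which Npas2 and Per2 were not tested with the filter at the 60th percentile), and 5 did not. Fosl1 also did not pass with median centring, the mean of the probe sets or no trend (adjusted p of 0.0726, 0.0761 and 0.119, limma). Over all 12726 genes, 590 were higher and 592 lower, against 106 and 228 with median centring, 122 and 142 without the trend, 345 and 350 with the replicate block, 182 and 252 by the 2-fold criterion and 230 to 775 and 199 to 802 with an array left out. The cause of the other changes was not tested.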
